A study of Mus musculus with 12 samples.

Results

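The Cyp2c family was followed in 10 genes, Cyp2c29, Cyp2c37, Cyp2c38, Cyp2c39, Cyp2c50, Cyp2c54, Cyp2c55, Cyp2c65, Cyp2c66 and Cyp2c70, among the 55416 genes listed for mouse duodenum and liver. The genes were selected by symbol after Cyp2c55 had been seen to fall in the duodenum of CORT-treated mice. The levels in the 6 duodenal libraries therefore chose the family, and in that comparison the members are described without a p-value. Another 10 rows carried a Cyp2c symbol. Of these, Cyp2c23, Cyp2c40, Cyp2c67, Cyp2c68 and Cyp2c69 are coding genes, and 5 are pseudogenes whose level never exceeded 0.99 TPM, an abundance per transcript length scaled to a common total in each library.

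Male C57BL6/J mice, 8 weeks old at the start, received corticosterone (CORT, the main glucocorticoid of rodents) at 40 mg/kg or vehicle (Veh) under the skin every day for 8 weeks. RNA of duodenum, labelled intestine, and of liver was sequenced in 3 CORT and 3 Veh libraries per tissue, 12 in all, each labelled as a biological replicate. The p-values measure only the spread between these samples. TPM values can be compared between genes, but they do not tell how many reads were counted, and a gene at 0 is only listed at 0.

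Cyp2c enzymes are heme-containing monooxygenases of the endoplasmic reticulum that take electrons from NADPH-cytochrome P450 reductase and oxidise drugs, steroids, retinoids and fatty acids. Several turn arachidonic acid into epoxides or hydroxy acids, which soluble epoxide hydrolase and other enzymes process further. In liver the nuclear receptors CAR and PXR, together with HNF4A, are known to drive many Cyp2c genes, and in the gut a different subset of the family is transcribed.

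The family lies on mouse chromosome 19. In RefSeq (GRCm38.p6) its coding genes are ordered as Cyp2c55, Cyp2c65, Cyp2c66, Cyp2c29, Cyp2c39, Cyp2c38, Cyp2c67, Cyp2c68, Cyp2c40, Cyp2c69, Cyp2c37, Cyp2c54, Cyp2c50, Cyp2c70 and Cyp2c23. How alike the copies are matters for every level given here, because a read that matches more than one copy has to be divided between them. The 60 coding bases around the codon of the cysteine that holds the heme are shown for the 10 members, from transcripts of GENCODE M21 (GRCm38). The first base of that codon is coding base 1303, or 1300 in Cyp2c70. Capitals mark bases that differ from the first gene of each group, which is Cyp2c50 for the liver trio.

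Cyp2c50: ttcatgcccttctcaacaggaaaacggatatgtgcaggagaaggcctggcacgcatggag
Cyp2c54: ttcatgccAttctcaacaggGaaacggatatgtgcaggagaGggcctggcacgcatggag
Cyp2c37: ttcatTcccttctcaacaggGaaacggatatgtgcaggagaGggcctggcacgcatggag

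In the next trio, capitals mark differences from Cyp2c29.

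Cyp2c29: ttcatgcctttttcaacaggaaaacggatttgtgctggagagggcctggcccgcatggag
Cyp2c39: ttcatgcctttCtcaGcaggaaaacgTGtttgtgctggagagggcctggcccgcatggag
Cyp2c38: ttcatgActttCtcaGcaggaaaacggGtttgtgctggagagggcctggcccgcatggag

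For the members transcribed mainly in the duodenum, capitals mark differences from Cyp2c65. Cyp2c70 is shown alone and without capitals.

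Cyp2c65: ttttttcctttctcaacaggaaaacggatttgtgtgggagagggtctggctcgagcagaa
Cyp2c66: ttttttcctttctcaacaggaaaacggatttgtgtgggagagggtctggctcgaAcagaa
Cyp2c55: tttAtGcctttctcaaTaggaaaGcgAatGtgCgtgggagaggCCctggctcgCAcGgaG
Cyp2c70: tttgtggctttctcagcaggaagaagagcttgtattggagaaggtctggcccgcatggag

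In this window Cyp2c54 and Cyp2c37 each differ from Cyp2c50 at 3 bases, and Cyp2c66 differs from Cyp2c65 at 1 base, whereas Cyp2c55 differs from Cyp2c65 at 13. Over the whole coding sequence the identity was 96.3% for Cyp2c65 with Cyp2c66, 96.1% for Cyp2c37 with Cyp2c50, 95.2% for Cyp2c50 with Cyp2c54 and 94.2% for Cyp2c38 with Cyp2c39. Cyp2c29 was 89.5% identical to Cyp2c39 and 89.1% to Cyp2c38. Cyp2c55 was at most 77.6% and Cyp2c70 at most 69.8% identical to any other coding gene of the family. Of all 150-base stretches of a transcript, the length of 1 read, 5.47% in Cyp2c66, 4.55% in Cyp2c65, 3.25% in Cyp2c50, 2.99% in Cyp2c54 and 0.299% in Cyp2c37 also occur letter for letter in another Cyp2c transcript. No such stretch was found for Cyp2c55, Cyp2c29, Cyp2c38, Cyp2c39 or Cyp2c70. The share was higher in Cyp2c40, at 29.1%, Cyp2c69, at 22.5%, Cyp2c67, at 13%, and Cyp2c68, at 8.83%, so the levels of these copies are the least certain.

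**Figure D1:**
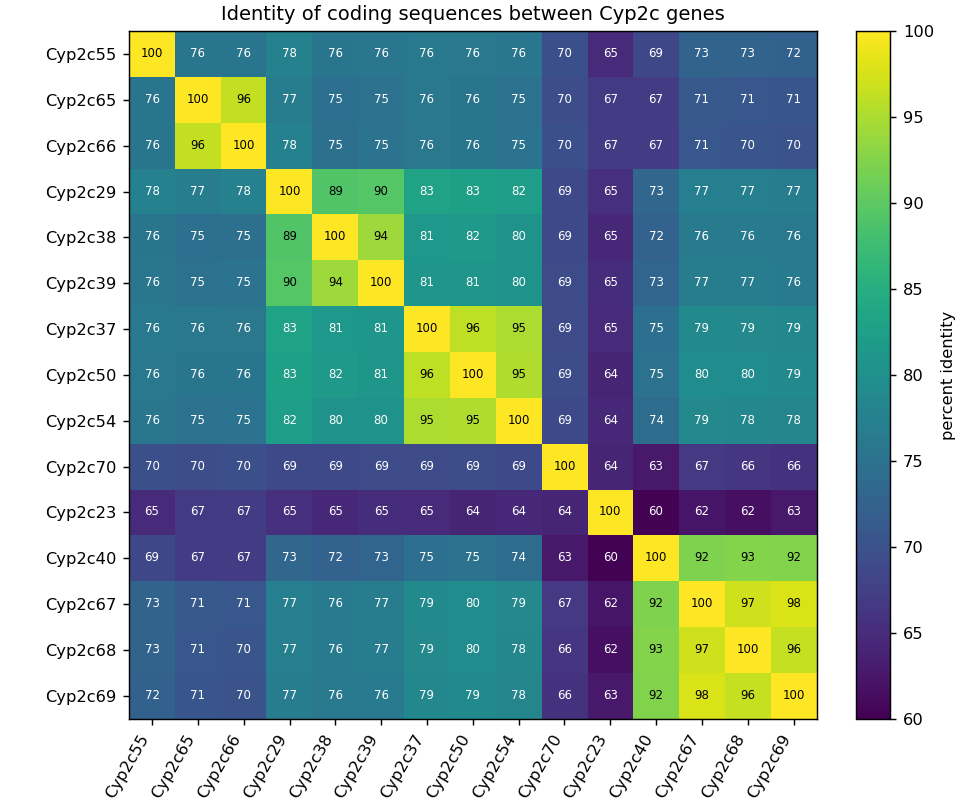
Percent identity of the aligned coding sequences for each pair of the 15 coding Cyp2c genes, with genes on both axes and the value written in each cell. The brightest blocks are Cyp2c65 with Cyp2c66 at 96.3%, the trio Cyp2c37, Cyp2c50 and Cyp2c54, and the group of Cyp2c40, Cyp2c67, Cyp2c68 and Cyp2c69.

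The Cyp2c members differed in level between vehicle-treated liver and duodenum, while Cyp2c29 was abundant in both. Cyp2c50, Cyp2c54, Cyp2c37, Cyp2c70, Cyp2c29 and Cyp2c38 were higher in liver, and Cyp2c65, Cyp2c66 and Cyp2c55 were higher in duodenum. All 9 members that passed the filter of a mean of 1 TPM in either group met the call rule, which asked for a limma adjusted p no higher than 0.05 together with more than a 1.5-fold difference on the log2(TPM + 1) scale. That rule was met by 67.4% of all genes in this comparison, and groups that do not overlap, as for the 9 members, were found for 77.9% of genes, so the counts are near what most genes show. Cyp2c39, at most 0.85 TPM in any Veh library, was not tested. The median difference over all genes was -0.72 with TPM as deposited and -0.039 with median-ratio scaling, a median shift of 0.68 per gene, and the share of calls that were higher in liver was 21.3% against 47.4%. Each of the 9 members kept its direction and its call under both scalings.

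Cyp2c29 (ENSMUSG00000003053), a liver P450 that epoxidises arachidonic acid, had the highest mean of the family in Veh liver. Its levels were 946, 579 and 941 TPM in Veh1, Veh2 and Veh3 of liver and 64.0, 391 and 73.5 TPM in the Veh libraries of duodenum. The groups did not overlap, although the second duodenal library came closer to liver than the other two. The log2 difference was 2.70 ± 0.67 (SE, n = 3 per group, adjusted p = 0.00855, limma).

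Cyp2c70 (ENSMUSG00000060613), the mouse enzyme that makes muricholic acids, followed in liver with 632, 540 and 318 TPM. In Veh duodenum it reached 0.61, 1.04 and 0.38 TPM, a log2 difference of 8.18 ± 0.28 (adjusted p = 5.05e-07, limma). Every liver value was thus at least 318 TPM, against at most 1.04 TPM in duodenum.

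The trio Cyp2c50 (ENSMUSG00000054827), Cyp2c54 (ENSMUSG00000067225) and Cyp2c37 (ENSMUSG00000042248), which oxidise arachidonic acid, was measured above 0 in the livers alone. Each of the 3 genes was listed at 0 in all 6 duodenal libraries, so no fold is given. In Veh liver Cyp2c50 had 631, 216 and 585 TPM. Cyp2c54 had 244, 74.2 and 233 TPM, and Cyp2c37 had 146, 47.7 and 175 TPM. In all 3 genes Veh2 was the low library.

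Cyp2c38 (ENSMUSG00000032808) and Cyp2c39 (ENSMUSG00000025003), a close pair of which Cyp2c39 hydroxylates retinoic acid, were minor transcripts. Cyp2c38 had 3.32, 6.51 and 6.41 TPM in Veh liver and 1.28, 0.16 and 0.46 TPM in Veh duodenum, a log2 difference of 1.99 ± 0.32 (adjusted p = 0.00116, limma). Cyp2c39 had 0.48, 0.33 and 0.85 TPM in Veh liver and was listed at 0 in 5 of the 6 duodenal libraries.

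Cyp2c65 (ENSMUSG00000067231) and Cyp2c66 (ENSMUSG00000067229), neighbouring genes of the gastrointestinal tract that act on arachidonic acid, were the reverse case. Cyp2c65 had 214, 279 and 251 TPM in the Veh duodenal libraries and at most 0.03 TPM in Veh liver, a log2 difference of -7.93 ± 0.13 (adjusted p = 2.80e-08, limma). Cyp2c66 had 94.7, 129 and 106 TPM in Veh duodenum and was listed at 0 in all 6 livers. Both genes were thus higher in each duodenal library than in any liver.

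Cyp2c55 (ENSMUSG00000025002), an enzyme of the gut that forms hydroxy acids from arachidonic acid and is also inducible in liver, was held within a narrow range in Veh duodenum, at 43.3, 42.8 and 45.4 TPM. Veh liver had 1.82, 2.59 and 2.40 TPM, and the log2 difference was -3.78 ± 0.13. The Veh duodenal values are part of the comparison that chose the family by Cyp2c55, so no p-value is given for Cyp2c55 here. Of the other coding genes, Cyp2c23, an arachidonic acid epoxygenase, was higher in liver by 5.17 ± 0.48 (adjusted p = 7.52e-05, limma) and Cyp2c67 by 6.68 ± 0.12 (adjusted p = 3.56e-08, limma). Cyp2c68 was near 66.0 TPM in duodenum and 83.6 TPM in liver and did not meet the rule (log2 difference 0.30 ± 0.21, adjusted p = 0.241, limma), although with median-ratio scaling it did (1.11, adjusted p = 0.000521, limma).

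In Veh liver the means ran from 822 ± 210 TPM for Cyp2c29 (SD, n = 3) through 497 ± 161 for Cyp2c70, 477 ± 228 for Cyp2c50, 184 ± 95.1 for Cyp2c54 and 123 ± 66.7 for Cyp2c37 to 5.41 ± 1.81 for Cyp2c38 and 2.27 ± 0.401 for Cyp2c55. Neighbours in the order of the family overlapped in their ranges except at the step from Cyp2c68 to Cyp2c38. In Veh duodenum the order was Cyp2c65 at 248 ± 32.7 TPM, Cyp2c29 at 176 ± 186, Cyp2c66 at 110 ± 17.8, Cyp2c68 at 66.0 ± 5.43 and Cyp2c55 at 43.8 ± 1.39. Cyp2c29 overlapped both of its neighbours, and the remaining steps down to Cyp2c55 did not overlap.

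**Figure D2:**
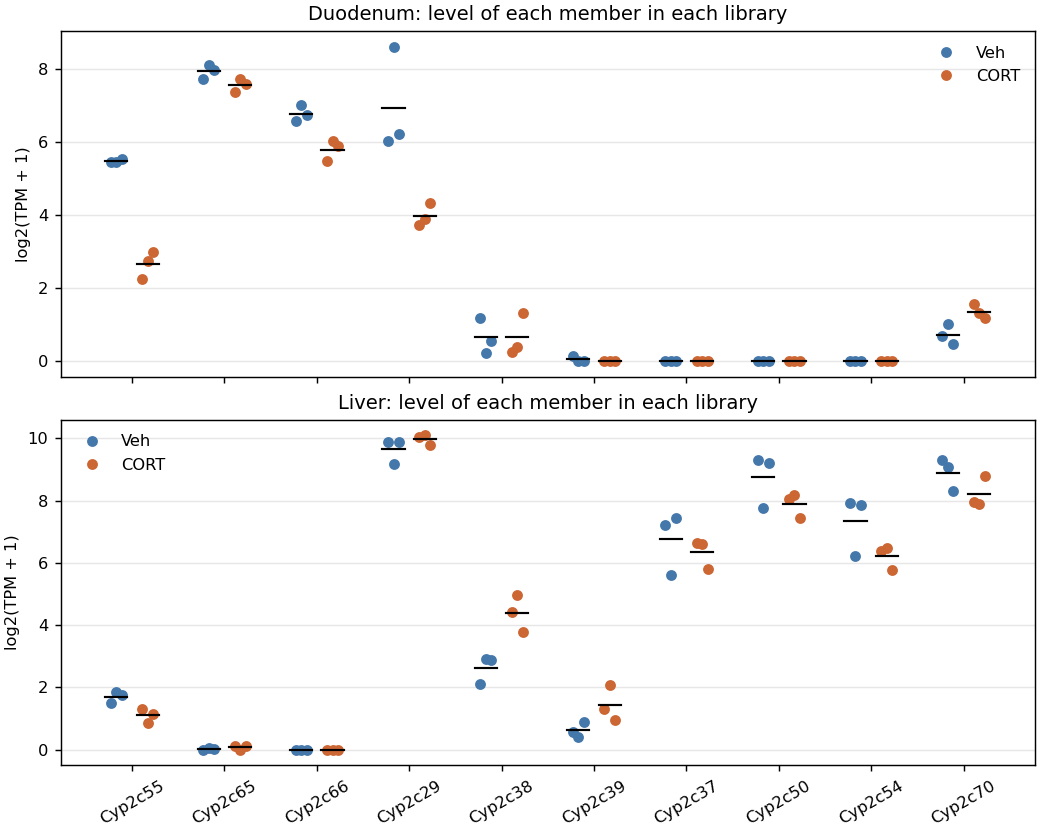
Level of each of the 10 members as log2(TPM + 1), with 1 point per library, Veh in blue and CORT in orange, and the group mean as a black line (n = 3 per group), for duodenum above and liver below. Cyp2c55 in duodenum dropped from 42.8 to 45.4 TPM in Veh to 3.77 to 6.88 TPM in CORT, while Cyp2c38 in liver rose from 3.32 to 6.51 TPM to 12.7 to 29.9 TPM.

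In the duodenum of CORT-treated mice the 4 abundant members were lower and the scarce Cyp2c70 was higher. These values belong to the comparison that chose the family, so they carry no p-value. Cyp2c55 met the call rule, 1 of the 5 members that passed the filter, in a comparison where 2.15% of genes met it. The CORT and Veh values of all 5 did not overlap, as for 26.4% of genes. Nothing is read from either count.

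Cyp2c55 had 3.77, 5.70 and 6.88 TPM in the CORT libraries, below each of the Veh values given above. The log2 difference was -2.83 ± 0.19 (SE, n = 3 per group), a 7.10-fold lower level on this scale, and it lay between -2.99 and -2.62 when each library was left out in turn.

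For Cyp2c29 the CORT libraries had 12.2, 13.8 and 19.3 TPM, all below the lowest Veh library at 64.0 TPM. The log2 difference was -2.97 ± 0.65, as large as that of Cyp2c55 but with over 3 times its standard error, since Veh2 stood at 391 TPM. Cyp2c29 did not meet the call rule with all libraries. Without Veh2 the difference was -2.14 and the rule was met.

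The pair Cyp2c65 and Cyp2c66 had smaller differences. Cyp2c66 had 43.6, 64.2 and 58.4 TPM in CORT duodenum, a log2 difference of -0.98 ± 0.19 that missed the call rule at a pseudocount of 1 and met it at 0.1. Cyp2c65 had 166, 211 and 193 TPM, a log2 difference of -0.38 ± 0.16 that did not meet it. Their sum went from 308 to 408 TPM in Veh to 209 to 275 TPM in CORT, and the ratio of Cyp2c65 to Cyp2c66 within a library went from 2.15 to 2.37 in Veh to 3.28 to 3.80 in CORT. The ratio thus did not overlap between groups. It is given as a description, without a test, and the division of shared reads can shift it.

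Cyp2c70 had 1.94, 1.47 and 1.25 TPM in CORT duodenum, above the Veh values of at most 1.04 TPM (log2 difference 0.62 ± 0.23, not meeting the rule). Of the remaining members, Cyp2c38 had 0.18, 0.31 and 1.5 TPM in CORT duodenum, within the range of Veh but for the last library, Cyp2c39 was listed at 0, and Cyp2c37, Cyp2c50 and Cyp2c54 were listed at 0 in every library. These 5 did not pass the filter.

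Other coding genes of the family, which did not choose it, were tested in the same fit. The log2 differences were -1.73 ± 0.56 for Cyp2c23 (adjusted p = 0.168, limma), -0.34 ± 0.16 for Cyp2c68 (adjusted p = 0.295, limma) and -0.77 ± 0.62 for Cyp2c40 (adjusted p = 0.529, limma), and none met the rule. Summed over all Cyp2c rows, the level was 502, 907 and 553 TPM in Veh duodenum and 271, 348 and 346 TPM in CORT duodenum. Cyp2c65 took 30.7% to 45.4% of this sum in Veh and 55.6% to 61.0% in CORT, and Cyp2c55 took 4.72% to 8.62% in Veh and 1.39% to 1.99% in CORT.

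**Figure D3:**
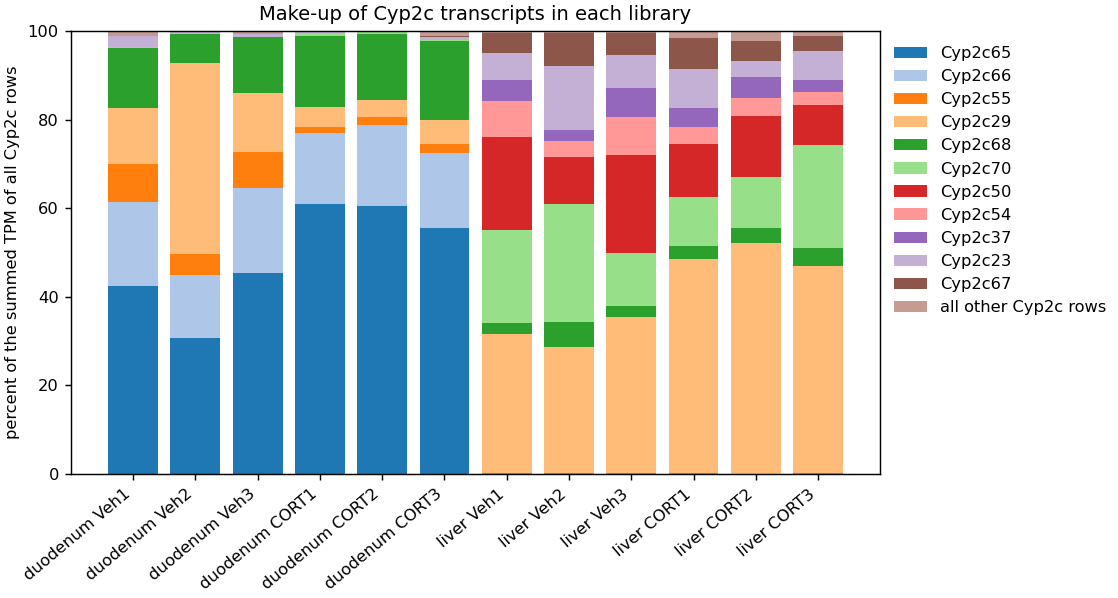
Share of each Cyp2c gene in the summed TPM of all Cyp2c rows, in percent, with 1 stacked bar per library, duodenum on the left and liver on the right. Cyp2c65 is the largest part of the duodenal bars, at 55.6% to 61.0% under CORT, except in Veh2, where Cyp2c29 has 43.1% and Cyp2c65 30.7%. Cyp2c29 is the largest part of every liver bar, at 28.6% to 35.4% in Veh and 47.0% to 52.1% in CORT.

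Pancreatic acinar transcripts also differed between the duodenal libraries. The 13 acinar markers summed to 36028 TPM in Veh2 and 28462 TPM in Veh3, against 173 TPM in Veh1 and 140 to 314 TPM in the CORT libraries. In Veh1 Amy2a5 was listed at 0, and in the CORT group Cela3b and Try4 were listed at 0 in all 3 libraries. With these genes removed and the rest rescaled, the log2 difference was -2.86 for Cyp2c55, -2.998 for Cyp2c29 and -1.01 for Cyp2c66. Veh1, which had few acinar transcripts, had 43.3 TPM of Cyp2c55 and 64.0 TPM of Cyp2c29, both above every CORT library. Alb, the albumin gene of hepatocytes, was at most 0.39 TPM in any duodenal library. Of 8 enterocyte markers none met the rule in duodenum. Their sum ran from 17136 to 25616 TPM in Veh and from 28492 to 32889 TPM in CORT, with Apoa4 the largest part, and the part of this difference in the levels above was not tested. In whole tissue, fewer cells of a type and less RNA per cell cannot be told apart.

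In liver Cyp2c38 was higher under CORT and was the 1 member to meet the call rule. That call depended on the libraries included, as given below. Of the 8 members that passed the filter 1 met the rule, where 6.92% of all genes did. The CORT and Veh values of 3 did not overlap, Cyp2c38, Cyp2c39 and Cyp2c55, as for 32.2% of all genes. Nothing is read from either count. The median log2 difference of the 8 was -0.50, against 0.078 over all genes tested. Among the abundant liver members, Cyp2c50, Cyp2c54, Cyp2c37 and Cyp2c70 had lower means and Cyp2c29 a higher mean, and none of these differences met the rule.

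Cyp2c38 had 20.4, 29.9 and 12.7 TPM in CORT liver, above the highest Veh library at 6.51 TPM. The log2 difference was 1.75 ± 0.34 (SE, n = 3 per group, adjusted p = 0.0316, limma), a 3.35-fold higher level on this scale. The call depended on the libraries included. The rule was met without CORT3 (2.05, adjusted p = 0.0219, limma) and missed on leaving out any of the 5 other libraries, with differences from 1.46 to 1.88 and adjusted p-values from 0.0523 to 0.0971 in limma.

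The neighbour Cyp2c39 had 1.45, 3.25 and 0.93 TPM in CORT liver, each above the highest Veh value of 0.85 TPM. The log2 difference of 0.82 ± 0.33 did not meet the rule (adjusted p = 0.170, limma). Summed, the pair had 3.80 to 7.26 TPM in Veh and 13.6 to 33.2 TPM in CORT.

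Cyp2c29 had 1066, 1092 and 890 TPM in CORT liver, overlapping the Veh values (log2 difference 0.34 ± 0.22, adjusted p = 0.382, limma). Its share of all Cyp2c transcripts in liver did separate the groups, from 28.6% to 35.4% in Veh and from 47.0% to 52.1% in CORT. The summed level of the family was 3006, 2026 and 2656 TPM in Veh liver and 2199, 2095 and 1896 TPM in CORT liver, and these ranges overlapped.

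For the trio Cyp2c50, Cyp2c54 and Cyp2c37, 1 Veh library set the result. Cyp2c50 had 263, 289 and 173 TPM in CORT liver, Cyp2c54 had 83.1, 87.2 and 53.1 TPM, and Cyp2c37 had 98.6, 97.1 and 54.8 TPM. Veh1 and Veh3 lay above all CORT libraries in each of the 3 genes, and Veh2 lay among them or below. The log2 differences were -0.86 ± 0.43 for Cyp2c50 (adjusted p = 0.252, limma), -1.14 ± 0.46 for Cyp2c54 (adjusted p = 0.178, limma) and -0.40 ± 0.49 for Cyp2c37 (adjusted p = 0.642, limma). Without Veh2, Cyp2c50 fell by 1.36 (adjusted p = 0.0369, limma) and Cyp2c54 by 1.70 (adjusted p = 0.0242, limma), both past the rule, while Cyp2c37 differed by -0.98 and did not meet it.

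Summed over the trio, the livers had 1022, 337 and 993 TPM in Veh and 444, 474 and 281 TPM in CORT. The ratio of Cyp2c50 to Cyp2c54 within a library was 2.51 to 2.91 in Veh and 3.16 to 3.32 in CORT, and that of Cyp2c50 to Cyp2c37 was 3.35 to 4.52 in Veh and 2.66 to 3.15 in CORT. Neither ratio overlapped between groups, Veh2 included, so Cyp2c54 was lower and Cyp2c37 higher relative to Cyp2c50 in each CORT liver. These ratios are given as a description, without a test.

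**Figure D4:**
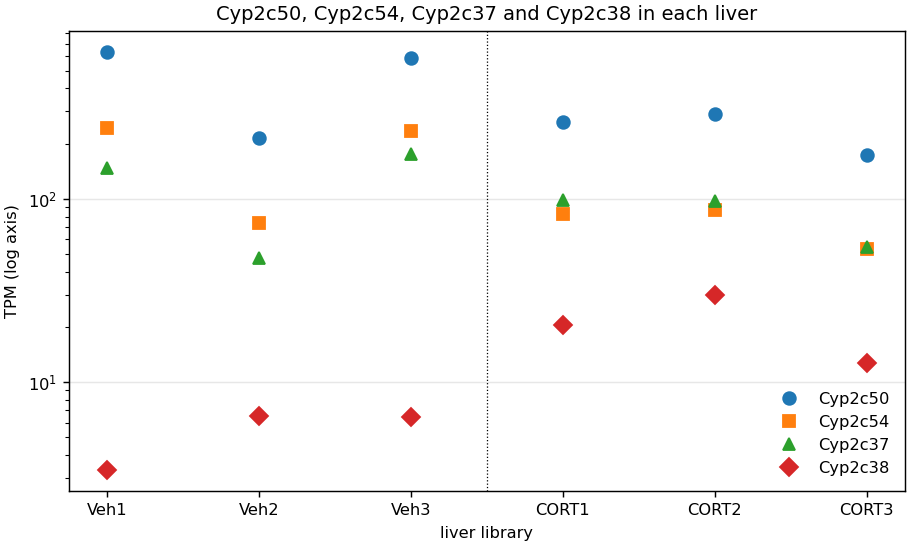
TPM on a log axis for Cyp2c50, Cyp2c54, Cyp2c37 and Cyp2c38 in each of the 6 liver libraries, Veh left and CORT right of the dotted line. Veh2 stands below Veh1 and Veh3 in the first 3 genes, with 216 TPM of Cyp2c50 against 631 and 585 TPM, and Cyp2c38 is higher in each CORT library.

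Markers of the zone around the central vein moved with Veh2. Of 10 pericentral markers 8 were lowest among the Veh livers in Veh2, and their sum was 3016 TPM there, 4830 TPM in Veh1, 4933 TPM in Veh3 and 5374 to 8304 TPM in the CORT livers. Cyp2e1 alone made up most of each sum, with 2363 TPM in Veh2, 3499 TPM in Veh1, 3662 TPM in Veh3 and 4175 to 6988 TPM in the CORT livers. None of the 10 markers was at 0 in either group, and none met the rule between CORT and Veh. Of their differences 7 were above 0 and 3 below. Glul, glutamine synthetase, had 141 TPM in Veh2 against 335 and 388 TPM in the other Veh livers. The part of these markers in the levels of the trio was not tested.

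Cyp2c70 had 246, 237 and 440 TPM in CORT liver, overlapping Veh (log2 difference -0.69 ± 0.33, adjusted p = 0.237, limma). Cyp2c55 had 1.45, 0.82 and 1.22 TPM, below each Veh value, but with a log2 difference of -0.60 ± 0.20 it did not meet the rule (adjusted p = 0.115, limma). Cyp2c65 was at most 0.08 TPM and Cyp2c66 was listed at 0, and neither was tested.

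None of the other coding genes met the rule in liver. Cyp2c40 and Cyp2c69, female-biased copies in mouse liver, had log2 differences of 1.06 ± 0.35 (adjusted p = 0.117, limma) and 0.76 ± 0.23 (adjusted p = 0.0942, limma). Those of Cyp2c23, Cyp2c67 and Cyp2c68 were -0.83 ± 0.34, -0.49 ± 0.29 and -0.21 ± 0.22, with adjusted p-values of 0.179, 0.344 and 0.580 in limma. Of the 8 enterocyte markers, Vil1, Lct, Sis, Cdx2 and Alpi were at most 0.34 TPM in any liver. Anpep had 57.1 to 74.0 TPM and Fabp2 26.3 to 111 TPM in the livers, and Apoa4, which hepatocytes also make, had 76.2 to 172 TPM in Veh and 555 to 3840 TPM in CORT livers. The part of these transcripts in the liver levels was not tested.

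**Figure D5:**
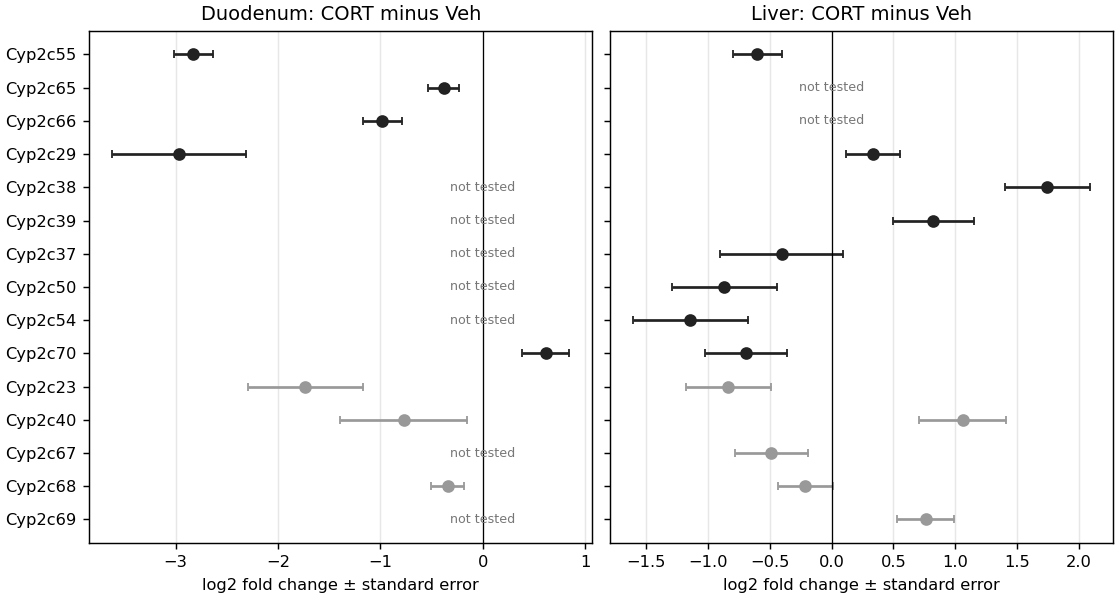
Log2 fold change of CORT against Veh with its standard error (n = 3 per group) for each coding Cyp2c gene, on log2(TPM + 1), duodenum on the left and liver on the right, with the 10 members in black and the other genes in grey. Cyp2c55 and Cyp2c29 stand lowest in duodenum at -2.83 and -2.97, and Cyp2c38 stands highest in liver at 1.75.

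Side by side, the CORT difference of Cyp2c55 was -2.83 in duodenum and -0.60 in liver, and that of Cyp2c29 was -2.97 in duodenum and 0.34 in liver. Cyp2c70 had 0.62 in duodenum and -0.69 in liver and met the rule in neither tissue. Cyp2c55 in liver and Cyp2c70 in duodenum were at most 2.59 TPM, where the pseudocount weighs on the difference. With a pseudocount of 0.1 these differences were -0.93 and 1.16. In the fit of all 12 libraries with a term for treatment by tissue, Cyp2c29, Cyp2c55 and Cyp2c66 were the 3 of 10 members to meet the call rule, where 3.6% of all genes did. The duodenal side of this term chose the family, so the count is a description. Cyp2c66 was listed at 0 in liver, so its term is the duodenal difference alone. Cyp2c55 met the rule on leaving out each of the 12 libraries, Cyp2c29 on leaving out 3 of them and Cyp2c66 on leaving out 2. These counts are also a description, because Cyp2c55 was picked for its duodenal fall, and they lend its term no support.

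The stretches before the duodenal genes and before Cyp2c38, the member called in liver, are shown next, from RefSeq promoter entries on GRCm38.p6, which held 9 of the 10 members but not Cyp2c54. Each ends before the first annotated base of its gene, so their lengths differ. Capitals mark TGTTCT or AGATAA, read on either strand.

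Cyp2c38, chr19:39463104-39463325, minus strand: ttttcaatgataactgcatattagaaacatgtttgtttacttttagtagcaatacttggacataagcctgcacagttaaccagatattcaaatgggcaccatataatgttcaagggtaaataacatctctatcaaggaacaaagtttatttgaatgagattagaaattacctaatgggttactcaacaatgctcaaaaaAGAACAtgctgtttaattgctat
Cyp2c55, chr19:39006769-39006939, plus strand: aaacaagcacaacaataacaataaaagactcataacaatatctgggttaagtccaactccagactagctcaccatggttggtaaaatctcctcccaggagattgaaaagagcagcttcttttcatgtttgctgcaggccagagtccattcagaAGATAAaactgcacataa
Cyp2c65, chr19:39060756-39061005, plus strand: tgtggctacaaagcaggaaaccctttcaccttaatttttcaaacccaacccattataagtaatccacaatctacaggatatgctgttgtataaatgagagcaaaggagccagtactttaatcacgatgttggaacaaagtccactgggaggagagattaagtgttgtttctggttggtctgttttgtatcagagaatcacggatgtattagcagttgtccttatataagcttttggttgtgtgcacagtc
Cyp2c66, chr19:39113648-39113897, plus strand: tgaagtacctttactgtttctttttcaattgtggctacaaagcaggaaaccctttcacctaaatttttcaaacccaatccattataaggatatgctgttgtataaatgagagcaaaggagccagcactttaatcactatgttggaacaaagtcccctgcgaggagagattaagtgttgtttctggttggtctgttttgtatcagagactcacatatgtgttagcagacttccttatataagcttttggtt

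Counts here are over the 250 bases before the start in each entry, which can reach past the stretches shown. TGTTCT, a half-site of the glucocorticoid receptor, occurred once before Cyp2c38, where it reads as AGAACA, once before Cyp2c50 and once in 1 of the 2 entries of Cyp2c39. Among 32851 promoter entries 16.1% hold it in the 250 bases before the start. AGATAA, a site of GATA factors, occurred before Cyp2c55, Cyp2c29, Cyp2c70 and in each of the 2 entries of Cyp2c39, and in 9.99% of entries. TTTATG, a site of CDX factors, was found before Cyp2c37 and Cyp2c50, and in 10.8% of entries. Motifs were searched on both strands. Leaving Cyp2c39 aside, the 3 do not share letters except where TTTATG overlaps TGTTCT before Cyp2c50. Aligned end to end, with unmatched ends counted as differences, the stretches before Cyp2c65 and Cyp2c66 were 74.6% identical. Those before Cyp2c37 and Cyp2c50 were 84.3% identical. The start of the Cyp2c65 stretch lies inside that of Cyp2c66, so part of their difference is where the stretches begin and end.

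The electron donor of the family and several other targets of CAR and PXR rose in both tissues. Por, which encodes cytochrome P450 reductase, rose by 1.26 ± 0.16 on the log2 scale in duodenum (adjusted p = 0.0189, limma) and by 1.75 ± 0.21 in liver (adjusted p = 0.00702, limma), 1 of 7 redox and heme partners to meet the rule in each tissue. Of the CAR and PXR targets outside the family, 3 of 9 tested in duodenum and 4 of 11 in liver met the rule. All of these were higher under CORT, and over all genes 2.15% and 6.92% met the rule. The gene lists, this one included, were chosen with earlier results of these data known, so their counts are a description. In duodenum 3 of the 9 and in liver 4 of the 11 had a difference below 0, none past the rule. Among them were Abcc3 in duodenum (-1.12 ± 0.23, adjusted p = 0.0654, limma) and Gsta1 in liver (-1.16 ± 0.47, adjusted p = 0.178, limma). Cyp3a11, the main drug-metabolising P450 of the Cyp3a family, rose by 2.34 ± 0.23 in duodenum and 1.59 ± 0.19 in liver. Cyp2b10, the standard CAR target, rose by 1.13 ± 0.15 in duodenum and 8.29 ± 0.52 in liver. The median log2 difference of this list was 0.63 in duodenum and 0.29 in liver, where over all genes tested it was -0.012 and 0.078.

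Among 12 regulators of the family, Nr0b2, a co-repressor of nuclear receptors, was the 1 that met the rule in duodenum, higher by 1.33 ± 0.19 (adjusted p = 0.0253, limma). In liver Hnf4a rose by 0.86 ± 0.15 (adjusted p = 0.0211, limma). Nr1i2, which encodes PXR, had a log2 difference of 0.98 ± 0.20 in duodenum (adjusted p = 0.0643, limma) and 0.89 ± 0.23 in liver (adjusted p = 0.0651, limma), and Nr1i3, which encodes CAR, 0.21 ± 0.16 and 0.085 ± 0.46, so neither met the rule. Of the epoxide pathway, Ephx1, Ephx2 and the Cyp2j genes, none of the 5 tested in each tissue met it. In liver all 5 tested female-biased P450 genes had a difference above 0, and 2 met the rule, Cyp17a1 and Cyp4a14. Their differences were 2.43 ± 0.54 and 7.13 ± 0.94. All 5 tested male-biased ones had a difference below 0, and 1 met the rule, Cyp2u1, which fell by 1.64 with an SE of 0.25. Over all genes in liver 6.92% met it. Cyp4a14 is also a target of PPAR-alpha.

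Fkbp5, a glucocorticoid receptor target used as a check of the treatment, rose by 4.30 ± 0.34 in duodenum and 4.23 ± 0.32 in liver (adjusted p = 0.00450 and 0.00178, limma). Tsc22d3, the other gene of this check, rose by 2.01 ± 0.25 in duodenum (adjusted p = 0.0185, limma) and had a log2 difference of 1.92 ± 0.49 in liver that did not meet the rule (adjusted p = 0.0623, limma). The TPM values of a library summed to between 983327 and 997319. Hepatocyte markers summed to at least 111775 TPM in liver and at most 254 TPM in duodenum, most of it Cps1, which the gut also makes. Gastric markers summed to at most 6.02 TPM in duodenum, and distal gut markers to 47.7 to 71.6 TPM, against 1058 to 1589 TPM for proximal ones. Aqp8, a water channel on the distal list, fell by 2.68 in duodenum (adjusted p = 0.0110, limma), the 1 call among the gut, gastric and acinar markers there.

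Over the 12 libraries, the genes outside the family whose log2(TPM + 1) was most like that of Cyp2c55, among 14791 genes, were Ccl22 (Pearson r = 0.981), Apol10a (0.974) and Cd101 (0.974). For Cyp2c29 they were Pcsk6 (0.974), Slc16a12 (0.957) and Ugt2b38 (0.951). Cyp2c65 was most like Hpse2, Gipc2 and Tpsg1 (0.999 each), and Cyp2c70 most like Itih1, C8a and Serpina10 (0.996 each). The points share tissue and treatment, and for Cyp2c65 and Cyp2c70 the contrast between tissues makes up nearly the whole range, so the values are a description only.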

How the data were processed

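Per the authors, SeqPrep and Sickle trimmed the reads, HISAT2 (orientation mode) aligned them, StringTie assembled transcripts, and RSEM gave the abundances. Each deposited column holds the TPM of 1 library. The labels name GRCm39. Tool versions and the annotation release are not given in the sources used here. RSEM divides reads that match several copies of a family by an estimate, which can shift level between near-identical genes.

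Each comparison was fitted over the whole table in limma 3.58.1 under R 4.3.3 (lmFit, eBayes with a trend) on log2(TPM + 1), leaving out genes whose mean was under 1 TPM in all compared groups. P-values had the Benjamini-Hochberg adjustment over all genes tested, 13607 in duodenum, 11699 in liver, 14134 between Veh tissues and 14806 for treatment by tissue. The limits of a call were 0.05 for the adjusted p and 1.5 for the fold. The count-based test of the study could not be used on TPM. Depth is unknown, so precision comes from the spread between 3 libraries per group, which eBayes moderates with a trend over all genes tested. An exact permutation test of 3 against 3 cannot go below 0.1. The fits were tested on simulated data.

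The members and gene lists were chosen with earlier results of these data known. One gene of the regulator list is not reported here. Named were the members, the other Cyp2c rows, the 3 most similar genes for 4 members, called genes of each list and Fkbp5. Tsc22d3, Nr1i2, Nr1i3, Glul, Cyp2e1, Alb, Cps1, Abcc3, Gsta1, acinar genes at 0 and the enterocyte markers were named after their values were seen. Coding sequences came from GENCODE M21 and promoters from RefSeq, both on GRCm38, and were aligned with Biopython 1.88. No coordinates were carried to GRCm39. Alternatives were a pseudocount of 0.1, no filter, a replicate block, median-ratio scaling, removal of acinar genes, each library left out, and sums over copies, which stand beside the single copies.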

Additional observations from a re-analysis of the deposited data

Results flagged for a closer look

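The treatment by tissue term of the limma fit over 12 libraries met the call rule for Cyp2c29 and Cyp2c55. Liver minus duodenum, it was 3.30 ± 0.77 on the log2 scale for Cyp2c29 and 2.23 ± 0.27 for Cyp2c55. The term of Cyp2c66, 0.98 ± 0.22, also met the rule, but the gene is listed at 0 in all livers, so it restates the duodenal difference and shows no difference between tissues. The duodenal levels chose the family, so these values are a description, with no p-value.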

How the results depend on the processing

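In duodenum the count of members called went from 1 to 2 with a pseudocount of 0.1 and ran from 1 to 2 on leaving out each library, where Veh2 decided Cyp2c29. In liver it went from 1 to 0 without the filter and with the replicate block, and ran from 0 to 2. For treatment by tissue it went from 3 to 1 without the filter and ran from 1 to 3. The count of all genes called in duodenum went from 292 to 52 without the filter and to 62 with the replicate block, and ran from 66 to 237 on leaving out each library. In liver it went from 810 to 283 without the filter and to 307 with the replicate block, and ran from 247 to 831. For treatment by tissue it went from 533 to 336 without the filter and ran from 289 to 626. Between Veh tissues no count moved by over 1.5 times.

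Cyp2c38 in liver had an adjusted p of 0.0899 without the filter and 0.0588 with the replicate block (limma). Deviations of same-numbered libraries had correlations of -0.12 to 0.073, within the -0.14 to 0.14 of libraries with different numbers. The labels do not say whether equal numbers mark the same mouse, and with 3 libraries per group this check cannot decide it. The main fits treat all libraries as independent. Median-ratio scaling turned the share of liver calls that were higher from 71% to 53.7%, and for treatment by tissue from 63.8% to 51.3%. Directions reversed for genes that were not called. The leave-one-out range of Cyp2c68 was -0.39 to 0.019 in liver and -0.044 to 0.36 for treatment by tissue, that of Cyp2c40 between Veh tissues was -0.016 to 0.93, and that of Cyp2c67 for treatment by tissue was -0.57 to 0.053. Cyp2c67 had 0.41 there with a pseudocount of 0.1. The causes were not tested. With depth unknown, nothing can be said of genes listed at 0 beyond that.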
